A study of Homo sapiens with 5 samples.

Results

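Hemidesmosomes are the plaques by which basal keratinocytes hold on to the basement membrane, and 9 genes of this anchorage were examined in HaCaT cells with and without AHNAK knockdown. The genes were taken by symbol from the deposited expression table, which holds 27933 symbols, and all 9 were found: LAMA3, LAMB3, COL17A1, ITGA6, ITGB4, DST, PLEC, CD151 and COL7A1. Total RNA of 5 libraries had been sequenced, 2 labelled control and 3 labelled AHNAK knockdown, all from HaCaT, an established human keratinocyte line grown in serum-containing medium. The labels give no agent, dose or time for the knockdown, and the series' design text calls the same cells a knockout. They do not say whether the replicates were separate cultures, so p-values here reflect the spread among the libraries alone, which may be technical.

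In the skin, laminin-332 is the adhesive protein of the basement membrane, a trimer in which LAMA3 encodes the alpha chain and LAMB3 the beta chain. The integrin made of the ITGA6 and ITGB4 products binds it from the basal cell surface, together with the transmembrane collagen encoded by COL17A1 and the tetraspanin CD151. Inside the cell, the plakins encoded by PLEC (plectin) and DST (the BP230 antigen in its epithelial form) tie the integrin and the collagen to keratin filaments, while COL7A1 encodes the collagen of the anchoring fibrils below the membrane. Inherited loss of these proteins causes blistering skin disease. AHNAK is a giant scaffold protein found at the cell membrane and in the cytoplasm.

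The laminin chains stood lower and COL17A1 higher in the means of the knockdown libraries, and windows around their transcript starts are shown for these 3 genes. They were taken from RefSeq (GRCh38.p14), run from 250 bases before to 50 bases after an annotated start, and are written 5′ to 3′ on the gene's strand. Capitals mark matches to TGANTCA, a pattern that includes the binding sequence of AP-1, searched on both strands (the pattern is its own reverse complement).
LAMA3, chr18:23872770-23873069, plus strand: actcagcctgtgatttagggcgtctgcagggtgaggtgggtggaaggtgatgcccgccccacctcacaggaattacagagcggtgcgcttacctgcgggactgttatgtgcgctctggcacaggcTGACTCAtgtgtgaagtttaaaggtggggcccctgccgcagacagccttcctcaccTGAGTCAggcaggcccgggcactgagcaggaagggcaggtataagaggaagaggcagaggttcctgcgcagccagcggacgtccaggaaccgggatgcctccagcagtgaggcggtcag
LAMB3, upstream start, chr1:209652376-209652675, minus strand: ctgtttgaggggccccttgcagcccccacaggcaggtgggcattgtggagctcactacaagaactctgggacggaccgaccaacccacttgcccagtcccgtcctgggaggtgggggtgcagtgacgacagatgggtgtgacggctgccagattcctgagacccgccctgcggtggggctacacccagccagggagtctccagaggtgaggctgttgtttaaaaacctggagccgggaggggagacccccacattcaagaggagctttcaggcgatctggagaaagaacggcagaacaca
LAMB3, downstream start, chr1:209651325-209651624, minus strand: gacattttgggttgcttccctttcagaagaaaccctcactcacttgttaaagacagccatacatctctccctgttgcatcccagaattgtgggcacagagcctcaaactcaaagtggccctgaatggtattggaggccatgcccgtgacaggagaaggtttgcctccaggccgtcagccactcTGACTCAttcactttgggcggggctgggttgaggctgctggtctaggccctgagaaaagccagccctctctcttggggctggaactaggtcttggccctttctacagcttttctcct
COL17A1, chr10:104085831-104086130, minus strand: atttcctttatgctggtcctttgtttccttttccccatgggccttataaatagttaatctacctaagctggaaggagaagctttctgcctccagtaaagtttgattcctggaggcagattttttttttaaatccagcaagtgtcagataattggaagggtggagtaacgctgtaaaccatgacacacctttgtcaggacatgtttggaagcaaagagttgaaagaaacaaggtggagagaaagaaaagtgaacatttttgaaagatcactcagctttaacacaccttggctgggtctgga
The LAMA3 window lies inside the gene, 183577 bases downstream of the first base of the GENCODE gene model. It holds 2 matches, beginning 125 and 69 bases before the start, reading TGACTCA and TGAGTCA. The downstream LAMB3 window holds 1 match, TGACTCA, beginning 67 bases before its start, and the upstream LAMB3 window and the COL17A1 window hold 0. The remaining LAMB3 window, which overlaps the upstream one and is not printed, also holds 0, so 1 of 3 LAMB3 windows has a match. Over all 35116 windows of the table, 7.71% held at least 1 match and 0.515% held 2 or more. Windows of 6 of the 9 genes were searched, 11 in all, and none of PLEC, ITGB4 or CD151 was among them. Of the 11, 3 had a match: those of LAMA3 and LAMB3 described above and 1 of 3 DST windows. The windows of ITGA6 and COL7A1, genes also lower by log2 difference, held 0. A match is a string of letters and not evidence of binding, and the deposited values do not tell which start was used.

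AHNAK itself was lower in every knockdown library, at 113.9, 69.62 and 115.3 FPKM against 204.8 and 242.0 FPKM in the controls, both in replicate order. FPKM counts fragments for each kilobase of transcript, relative to the fragments mapped in that library. Its log2 difference, which here and below is the knockdown mean of log2(FPKM + 0.5) less the control mean, was -1.19 (SE 0.24), with an adjusted p of 0.372 (limma, Benjamini-Hochberg over all 12196 tested genes). Library FPKM sums ranged from 374214.8 to 420540.9, and the absolute depth is unknown. All 10 keratinocyte markers examined had a mean of at least 1 FPKM, and their sum was 6546 to 8070 FPKM in control and 4389 to 6064 FPKM in knockdown, lower without overlap, like 6 of the 9 genes described below. KRT14 was a large part of it, at 2337 and 3072 FPKM in control and 2096, 1184 and 1814 FPKM in knockdown. The sum thus does not give the direction of each marker. The summed markers of other cell types were 3.30 to 5.02 FPKM in control and 6.12 to 10.2 FPKM in knockdown for fibroblasts, 0.376 to 0.457 and 0.640 to 0.736 FPKM for melanocytes (TYR listed at 0 throughout), 16.1 to 18.3 and 21.2 to 28.7 FPKM for immune cells (TYROBP listed at 0) and 2.09 to 2.98 and 2.06 to 2.98 FPKM for endothelial cells. Of these lists 3 of 7, 0 of 5, 1 of 6 (CD68) and 1 of 5 genes averaged at least 1 FPKM, and their part in the results was not tested. The low values of control replicate 1 and knockdown replicates 1 and 3 move in shared steps, as do those of control replicate 2 and knockdown replicate 2. These are called set A and set B here, no label describes them, and differences within each set are given beside the pooled ones.

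Of the 9 genes, 8 were lower in knockdown by log2 difference and 1, COL17A1, was higher, where 48.7% of all tested genes were lower and 51.3% higher. In 6 of them, LAMA3, LAMB3, ITGA6, ITGB4, DST and PLEC, every knockdown library lay below both controls, where 15.8% of all tested genes did so, 16.2% lay above both controls in every knockdown library and 32.0% did either. None passed the threshold over all genes (limma adjusted p from 0.383 to 0.802), and limma called 0% of the 12196 tested genes. At an unadjusted p under 0.05, LAMA3, DST and PLEC were lower, 3 of 9, where 5.48% of all tested genes were lower at that level, 6.22% higher and 11.7% differed in either direction. Without control replicate 1 that count was 1 (ITGA6), where 5.66% of all tested genes differed in either direction, and without knockdown replicate 3 it was 5, with COL17A1 (higher) and ITGA6 joining, where 14.5% did. The median log2 difference of the 9 genes was -0.31, against 0.007 over all tested genes, and it was -0.25 within set A and -0.35 within set B. In bulk RNA, fewer cells of a type and less RNA per cell cannot be told apart.

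**Figure D1:**
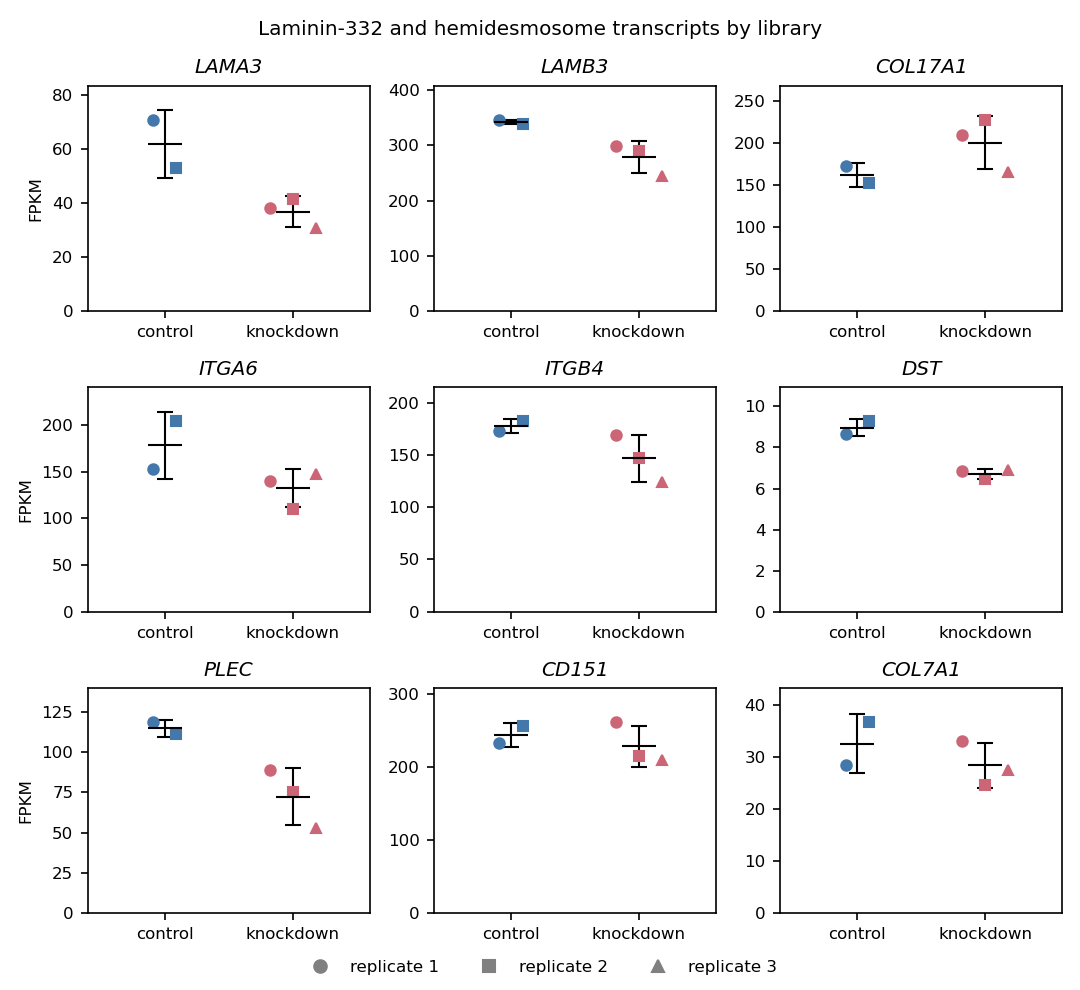
FPKM of each of the 9 genes by library, controls in blue and AHNAK knockdown in red, with the replicate shown by the marker shape, and the mean and SD of each group as a bar with whiskers (n = 2 and n = 3). The knockdown points lie below both control points for LAMA3, LAMB3, ITGA6, ITGB4, DST and PLEC, while for COL17A1, CD151 and COL7A1 the groups overlap.

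Among the laminin chains, LAMA3 (ENSG00000053747.16, chromosome 18, 23689443 to 23956222, plus strand, GRCh38) showed the lowest log2 difference of the 9 genes. It stood at 70.65 and 53.00 FPKM without knockdown, against 38.05, 41.55 and 30.48 FPKM with it (replicates in number order, here and for the genes that follow). The groups did not overlap, with group means of 61.83 ± 12.48 (SD, n = 2) and 36.69 ± 5.660 FPKM (SD, n = 3), or 0.593 of control. On the log2 scale it differed by -0.74 (SE 0.19, 95% confidence interval -1.20 to -0.29; limma adjusted p = 0.383), placing LAMA3 at the 1.3 percentile of all tested genes. It was -1.04 within set A and -0.35 within set B, and control replicate 1 was the higher of the controls.

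LAMB3 (ENSG00000196878.14, chromosome 1, 209614870 to 209652466, minus strand), which encodes the beta chain that pairs with it, was the most abundant of the 9 genes and differed less. Its values were 345.9 and 339.9 FPKM without knockdown and 299.5, 290.4 and 245.0 FPKM with it. The controls lay close together and all 3 knockdown libraries lay below them, knockdown replicate 3 lowest. Its log2 difference was -0.31 (SE 0.14, interval -0.64 to 0.03; limma adjusted p = 0.461), -0.35 within set A and -0.23 within set B. Within a library, the log2 ratio of LAMA3 to LAMB3 was -2.28 and -2.67 in the controls and -2.96, -2.79 and -2.99 in knockdown. LAMA3 was thus lower relative to LAMB3 in every knockdown library, with a difference of means of -0.44, or -0.69 within set A and -0.12 within set B (exact permutation test over the 10 splits, two-sided, p = 0.1, the smallest it allows; 0.27 after adjustment over 8 pairs). Without control replicate 1 the difference was -0.24.

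The integrin subunits are made as an obligate pair in these plaques, ITGB4 with its long cytoplasmic tail having ITGA6 as its only partner. ITGA6 (ENSG00000091409.14, chromosome 2, 172427354 to 172506282, plus strand) was at 153.2 and 204.0 FPKM without knockdown, against 139.8, 109.7 and 147.8 FPKM with it. Control replicate 2 was high and knockdown replicate 2 low, and the other 3 libraries lay between them. ITGA6 had a log2 difference of -0.43 (SE 0.19, interval -0.89 to 0.03; limma adjusted p = 0.454), -0.09 within set A and -0.89 within set B. Without control replicate 2 it was -0.22.

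ITGB4 (ENSG00000132470.13, chromosome 17, 75721328 to 75757818, plus strand) was at 172.7 and 182.0 FPKM without knockdown, against 169.1, 146.6 and 124.1 FPKM with it. Knockdown replicate 1 lay just below control replicate 1, and knockdown replicate 3 furthest below. A log2 difference of -0.28 (SE 0.16, interval -0.67 to 0.10; limma adjusted p = 0.532) resulted, or -0.17 without knockdown replicate 3. The log2 ratio of ITGA6 to ITGB4 was -0.17 and 0.16 in the controls and -0.27, -0.42 and 0.25 in knockdown, so the groups overlapped (difference -0.14, exact permutation p = 0.6). Within set A that difference was 0.16 and within set B it was -0.58, and it ranged from -0.34 without knockdown replicate 3 to 0.03 without control replicate 2.

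CD151 (ENSG00000177697.18, chromosome 11, 832843 to 839831, plus strand), the tetraspanin bound to laminin-binding integrins, had overlapping groups. Its values were 231.8 and 255.5 FPKM without knockdown and 260.6, 214.4 and 208.6 FPKM with it, the highest of the 5 being a knockdown library. The log2 difference was -0.10 (SE 0.15, interval -0.46 to 0.26; limma adjusted p = 0.802), from 0.01 within set A to -0.25 within set B. It shares 257 exonic bases with POLR2L on the other strand, a gene at a mean of 118.4 FPKM, and it is not stated whether reads were counted by strand. The log2 ratio of CD151 to ITGA6 was 0.60 and 0.32 in the controls and 0.90, 0.96 and 0.50 in knockdown, with knockdown replicate 3 between the controls (difference 0.33, exact permutation p = 0.3). That difference was 0.10 within set A, 0.64 within set B and 0.19 without control replicate 2.

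Of the plakins, PLEC (ENSG00000178209.15, chromosome 8, 143915147 to 143976734, minus strand) was at 118.7 and 111.3 FPKM without knockdown, against 88.74, 75.38 and 53.12 FPKM with it. PLEC averaged 115.0 ± 5.198 (SD, n = 2) against 72.41 ± 17.99 FPKM (SD, n = 3), or 0.630 of control, and no knockdown value reached the control range. It differed by -0.69 on the log2 scale (SE 0.22, interval -1.22 to -0.17; limma adjusted p = 0.389), at the 1.5 percentile of all tested genes, -0.79 within set A and -0.56 within set B. Relative to ITGB4, the integrin subunit it binds, PLEC was lower in every knockdown library, with log2 ratios of -0.54 and -0.71 in the controls and -0.93, -0.96 and -1.22 in knockdown (difference -0.41, or -0.53 within set A and -0.25 within set B; exact permutation p = 0.1, 0.27 adjusted over 8 pairs).

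DST (ENSG00000151914.19, chromosome 6, 56457987 to 56954628, minus strand) was the least abundant of the 9 genes. It stood at 8.670 and 9.273 FPKM without knockdown, against 6.830, 6.449 and 6.892 FPKM with it. DST averaged 8.972 ± 0.4268 (SD, n = 2) against 6.724 ± 0.2400 FPKM (SD, n = 3), or 0.749 of control, with a gap between the groups wider than the span of either. It differed by -0.39 on the log2 scale (SE 0.12, interval -0.68 to -0.10; limma adjusted p = 0.389), -0.32 within set A and -0.49 within set B. GENCODE lists 18 coding transcripts of DST from 17 starts and 14 of PLEC from 13 starts. The table has 1 value per gene, so the epithelial form of DST is not separated from its neuronal and muscle forms. The log2 ratio of DST to PLEC was -3.70 and -3.52 in the controls and -3.61, -3.45 and -2.86 in knockdown, with overlapping groups (difference 0.30, exact permutation p = 0.5). It was 0.47 within set A, 0.07 within set B, 0.08 without knockdown replicate 3 and -0.01 with libraries corrected for GC and length.

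The 2 collagen genes differed in direction. COL17A1 (ENSG00000065618.19, chromosome 10, 104031286 to 104085957, minus strand), the transmembrane collagen also called BP180, was at 172.0 and 151.4 FPKM without knockdown, against 208.7, 226.6 and 164.5 FPKM with it. Knockdown replicates 1 and 2 lay above both controls, and knockdown replicate 3 lay between them. The log2 difference was 0.30 (SE 0.17, interval -0.12 to 0.71; limma adjusted p = 0.540), 0.11 within set A and 0.58 within set B.

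Set against its partners in the same library, COL17A1 was higher in all 3 knockdown libraries. Its log2 ratio to ITGB4 was -0.01 and -0.26 in the controls and 0.30, 0.63 and 0.40 in knockdown, a difference of 0.58 (0.36 within set A, 0.89 within set B). The log2 ratio of DST to COL17A1 was -4.23 and -3.96 in the controls and -4.83, -5.03 and -4.48 in knockdown, a difference of -0.69 (-0.42 within set A, -1.07 within set B). Neither ratio overlapped between groups, with exact permutation p of 0.1 and 0.2, or 0.27 and 0.4 after adjustment over 8 pairs.

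COL7A1 (ENSG00000114270.17, chromosome 3, 48564073 to 48595267, minus strand), the anchoring fibril collagen, had values of 28.55 and 36.68 FPKM without knockdown and 33.19, 24.66 and 27.56 FPKM with it. Knockdown replicate 1 lay between the controls. COL7A1 had a log2 difference of -0.19 (SE 0.18, interval -0.62 to 0.24; limma adjusted p = 0.684), with opposite signs in the sets, 0.08 within set A and -0.56 within set B, and it was -0.01 without control replicate 2. Its log2 ratio to LAMB3 was -3.58 and -3.19 in the controls and -3.15, -3.53 and -3.13 in knockdown (difference 0.11, exact permutation p = 0.5), a difference of 0.43 within set A and -0.34 within set B that ranged from -0.08 without control replicate 1 to 0.30 without control replicate 2.

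**Figure D2:**
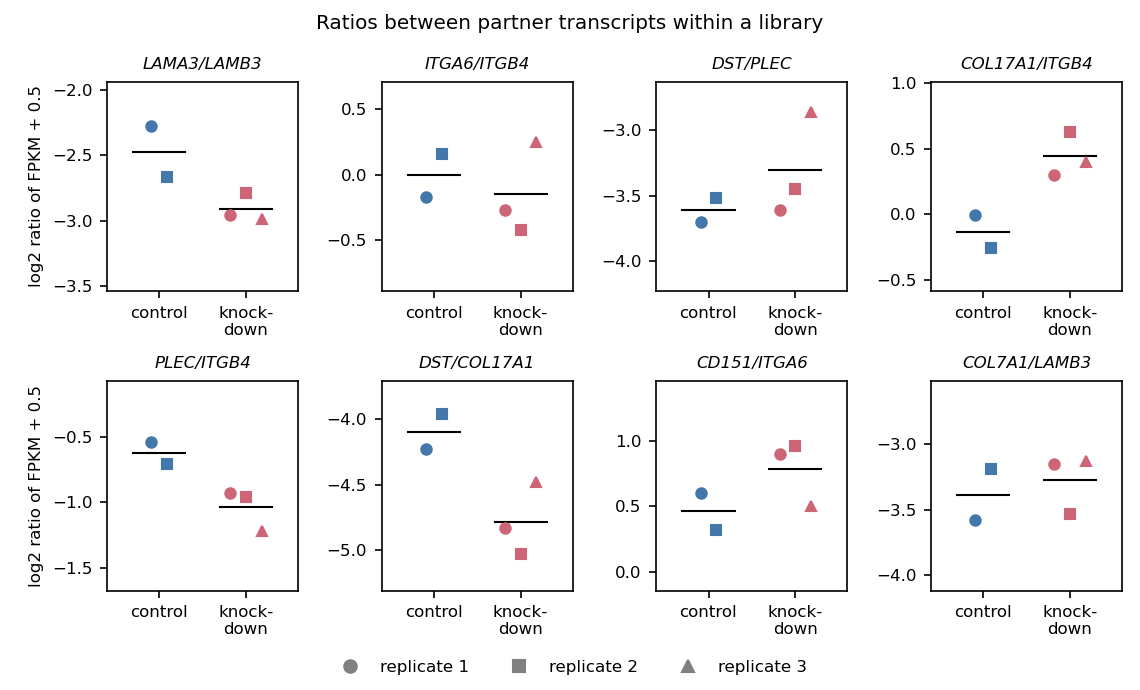
Log2 ratio of FPKM + 0.5 between partner transcripts within each library, controls in blue and knockdown in red, with the group mean as a line and an axis span of equal length in every panel. For LAMA3/LAMB3, COL17A1/ITGB4, PLEC/ITGB4 and DST/COL17A1 the groups do not overlap, and for the other 4 pairs they do. Among single tested genes, 32.0% do not overlap in either direction, and no share over other gene pairs is given. COL17A1 and ITGB4 recur among these pairs, so the pairs are not separate results.

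By level per length, the 9 genes kept a broad order. Medians over the 5 libraries ran from 299.5 FPKM for LAMB3 through 231.8 for CD151, 172.0 for COL17A1, 169.1 for ITGB4, 147.8 for ITGA6, 88.74 for PLEC, 41.55 for LAMA3 and 28.55 for COL7A1 to 6.892 FPKM for DST. LAMB3 was above CD151, ITGA6 above PLEC, PLEC above LAMA3, LAMA3 above COL7A1 and COL7A1 above DST in 5 of 5 libraries. ITGB4 against ITGA6 held in 3 of 5 and CD151 against COL17A1 in 4 of 5, so these neighbours did not differ beyond their spread. COL17A1 was above ITGB4 in 3 of 5, the knockdown libraries, so that order differed between the groups. In the controls COL17A1 was at 172.0 FPKM against 172.7 for ITGB4 in replicate 1, and 151.4 against 182.0 in replicate 2.

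The libraries did not rank alike for every gene. Knockdown replicate 3 was the lowest library for 5 genes (LAMA3, LAMB3, ITGB4, PLEC and CD151), knockdown replicate 2 for 3 (ITGA6, DST and COL7A1) and control replicate 2 for COL17A1. AHNAK was lowest in knockdown replicate 2. Median deviations of the 9 genes from their own means were 0.13 and 0.24 in control replicates 1 and 2 and 0.05, -0.12 and -0.16 in knockdown replicates 1, 2 and 3.

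GC content moved with the deviations of knockdown replicates 1 and 3. Over all tested genes with an annotated transcript, deviations in knockdown replicate 3 had a Spearman's rho of -0.548 with transcript GC content and those in knockdown replicate 1 a rho of 0.608, across genes, which are not independent replicates. In control replicates 1 and 2 and knockdown replicate 2 it was 0.181, 0.123 and -0.000. PLEC, at 67.0% GC, deviated by -0.69 in knockdown replicate 3, and DST and ITGA6, at 41.3% and 42.9%, by -0.12 and -0.00. COL7A1 and CD151, at 64.8% and 63.1%, deviated there by only -0.11 and -0.16, while LAMA3, at 50.7%, deviated by -0.55. Over the 9 genes rho was -0.43 in knockdown replicate 3, 0.55 in knockdown replicate 1 and -0.07, 0.02 and 0.08 in control replicates 1 and 2 and knockdown replicate 2. After a correction of every library for the GC and length of transcripts, the log2 difference was -0.64 for LAMA3, -0.43 for ITGA6, -0.40 for DST and 0.39 for COL17A1, near the uncorrected values. It shrank to -0.39 for PLEC, -0.20 for LAMB3, -0.11 for ITGB4 and -0.03 for CD151, and COL7A1 changed sign to 0.06. In 5 genes, LAMA3, LAMB3, ITGA6, DST and PLEC, all knockdown libraries still lay below both controls, where 20.4% of all tested genes did, and 0 of the 9 passed over all genes (limma adjusted p from 0.169 to 0.891).

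**Figure D3:**
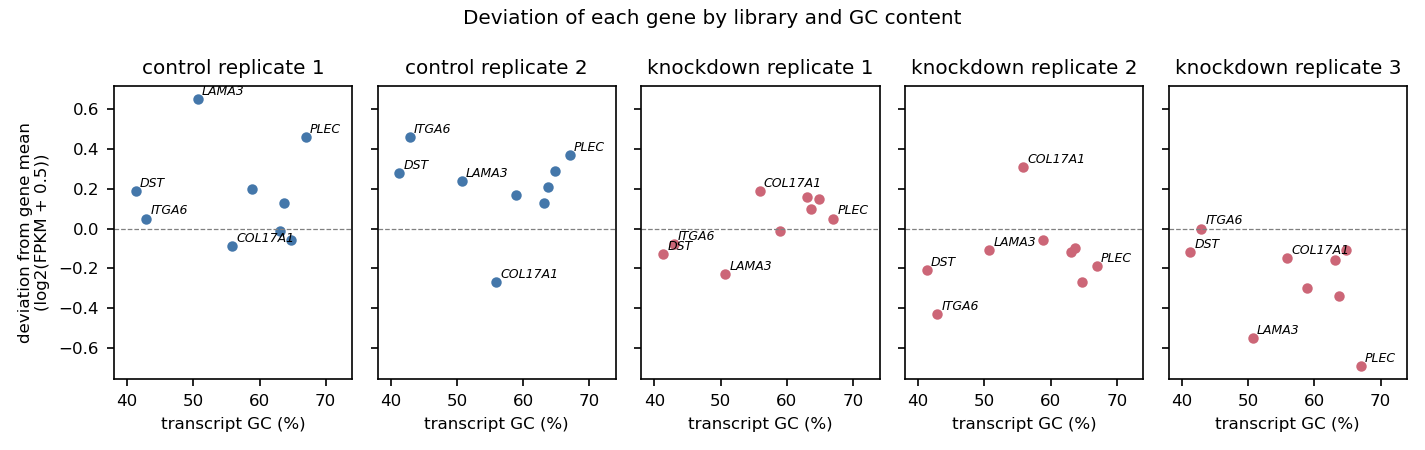
Deviation of each of the 9 genes from its own mean over 5 libraries on the log2(FPKM + 0.5) scale against the GC content of its longest coding transcript, with 1 panel per library and 5 genes labelled. In knockdown replicate 3 PLEC, at 67.0% GC, lies at -0.69 and ITGA6, at 42.9%, at -0.00, while LAMA3, at 50.7%, lies at -0.55.

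**Figure D4:**
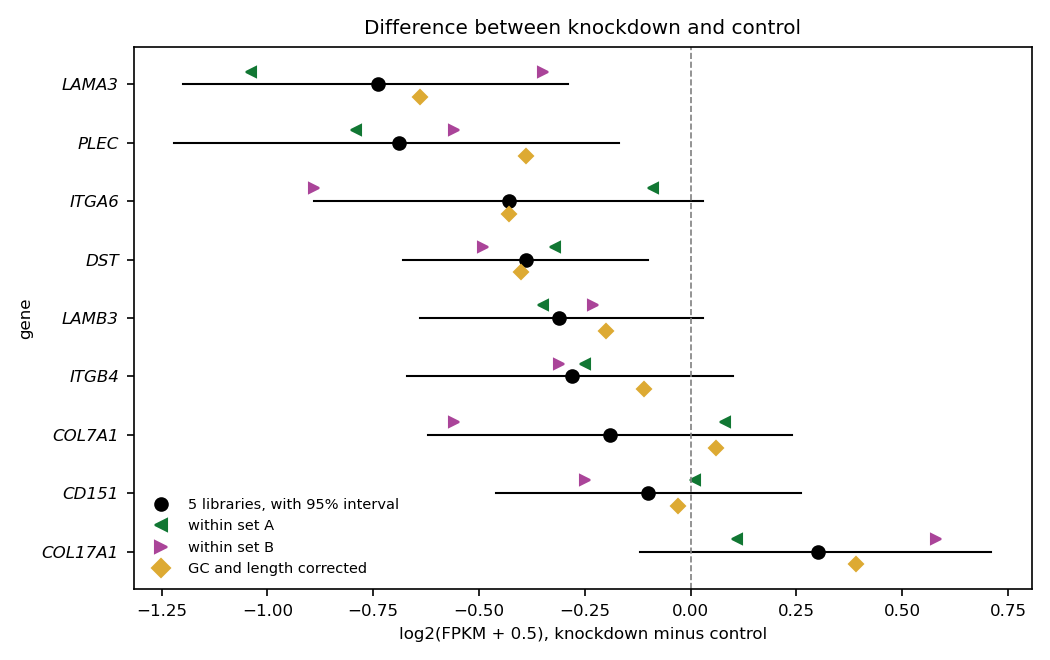
Log2 difference between knockdown and control for each gene, with the 95% confidence interval from limma over all 5 libraries, the differences within set A and within set B, and the difference with libraries corrected for the GC and length of transcripts. Intervals of LAMA3, PLEC and DST exclude 0 before adjustment for the number of genes tested, and COL17A1 lies to the right of 0 in all 4 values.

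Limma array weights gave a different count, with a weight of 3.975 on knockdown replicate 2 and of 0.530 and 0.257 on replicates 1 and 3. The knockdown side of this fit thus rests mainly on knockdown replicate 2. With these weights 5 of the 9 genes passed, where 11.7% of all tested genes did. LAMA3 (-0.59), PLEC (-0.61), DST (-0.43) and ITGA6 (-0.62) were lower and COL17A1 (0.45) higher in that fit. Their limma adjusted p ran from 0.0383 for PLEC to 0.0496 for COL17A1. AHNAK passed in the same fit at -1.55.

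Around the anchorage, 5 lists of related genes were counted in the fit without weights, and 0 genes of any of them passed over all genes. Some genes, such as KRT14, are in more than 1 list, so the lists are not independent. Over all tested genes 48.7% were lower, and at an unadjusted p under 0.05 (limma) 5.48% were lower and 6.22% higher. These shares are from the fit without the GC and length correction. Among other basement membrane components and their receptors, 12 of 16 tested genes were lower and 4 higher (median log2 difference -0.17), with 2 lower at an unadjusted p under 0.05. After the GC and length correction, 8 of the 16 were lower. NID2, a nidogen that links laminin to collagen networks, had 8.24 and 5.09 FPKM without knockdown and 4.07, 4.52 and 2.77 FPKM with it (log2 difference -0.73, unadjusted p = 0.0266). LAMC1, the gamma chain of other laminins, differed by -0.32. Of the proteases and collagen-modifying enzymes, 9 of 15 were lower and 6 higher (median -0.03), and 6 of 15 were lower after the GC and length correction. At an unadjusted p under 0.05, 0 were lower and 1 higher: P4HA1, a prolyl hydroxylase subunit for collagens, at 0.51 (limma unadjusted p = 0.0281). ADAM9, a sheddase, was at -0.36 and MMP14, a membrane metalloproteinase that cleaves laminin-332, at -0.29.

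On the keratin side and among tetraspanins, 6 of 8 genes were lower and 2 higher (median -0.21). At an unadjusted p under 0.05, 2 were lower and 1 higher. KRT15, a keratin of basal cells, was higher in every knockdown library (0.53), while CD82, a tetraspanin like CD151, was lower in every one (-0.41). KRT14, the basal keratin to which hemidesmosomes attach, differed by -0.70, with -0.26 within set A and -1.38 within set B. Among other genes of inherited skin blistering, 9 of 11 were lower and 2 higher (median -0.23). At an unadjusted p under 0.05, 3 were lower and 1 higher. KLHL24, a ubiquitin ligase adaptor that acts on KRT14 protein, was higher in every knockdown library (0.50). Among regulators, 9 of 15 were lower and 6 higher (median -0.21), with 3 lower and 1 higher at an unadjusted p under 0.05. EGFR, the receptor whose signalling phosphorylates the ITGB4 product, was at -0.59, MST1R, another receptor tyrosine kinase, at -0.45 and the small GTPase RAC1 at 0.56. After the GC and length correction 6 genes of the keratin and tetraspanin list were lower, 8 of the blistering list and 9 of the regulators. The share of all tested genes lower after that correction is not given, so the corrected counts of the 5 lists stand without a background. All genes named from the 5 lists had limma adjusted p between 0.387 and 0.459.

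The profiles over the 5 libraries were also compared with those of all 8677 genes averaging 5 FPKM or more, by the root mean square distance between centred log2 values. Nearest to LAMA3 were COL12A1 (0.052) and NFKBIE (0.070), and nearest to LAMB3 were NPC1 and WDR55 (0.024 each). PLEC lay nearest to RGS14 (0.060) and EGFR (0.063), DST to NIPA1 (0.017) and SLCO3A1 (0.030), and COL17A1 to LOC645513 (0.017) and SLC35E2 (0.019). For ITGA6 they were GAL3ST4 (0.031) and TCP11L1 (0.036), for ITGB4 SLC16A5 (0.015) and MAN2C1 (0.017), for CD151 R3HDM2 (0.016) and PLIN3 (0.020), and for COL7A1 NGFR (0.013) and FAAH (0.019). Within the 9 genes, LAMB3 and ITGB4 were nearest to each other (0.067), as were CD151 and COL7A1 (0.104) and LAMA3 and PLEC (0.177). COL17A1 lay furthest from any of the other 8, at 0.266 from CD151. With 5 libraries such distances describe these libraries only.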

How the data were processed

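Total RNA of 5 HaCaT libraries had been sequenced, and the authors deposited 1 table of FPKM values per gene symbol. Per the submitters' processing notes, HISAT2 2.0.1 and StringTie 2.0.6 were used, with GRCh38 and mm9 named without a role; the annotation, and whether strand was used, is not given in the sources used here. Groups and replicate numbers came from the sample titles. The analysis used log2(FPKM + 0.5) and the 12196 genes that averaged 1 FPKM or more, among them all 9 genes, with limma 3.58.1 in R 4.3.3 (lmFit, eBayes with an intensity trend, no covariate), two-sided, with Benjamini-Hochberg adjustment over all tested genes and a threshold of 0.05. On this scale the change of weakly expressed genes is understated. Ratios between 8 partner pairs were tested by exact permutation, which cannot go below p = 0.1 with 2 against 3 libraries. FPKM carry no read totals, so no count test and no depth-based interval was used. Sets A and B are libraries whose values under 0.3 FPKM shared 1 most frequent ratio (rounded to 5 decimals) in over 10% of genes. Positions, GC content and lengths came from GENCODE release 29 (GRCh38), which 96.5% of tested genes matched. Named genes were the 9, AHNAK, the 3 of smallest p of each list and the 2 nearest profiles; 1 gene that this rule took is not reported here. The members and lists were chosen with earlier results of these data known. On simulated data for this comparison (12196 genes, 200 of them changed per run), limma found 4.6% of log2 changes of 0.5, 77.8% of those of 1 and 97.4% of those of 1.5. The simulated noise was normal and independent between genes, without the GC-linked deviations of the real libraries. These shares therefore need not hold for the real libraries, where AHNAK at -1.19 did not pass. Alternative fits changed the pseudocount, filter, scaling or variance model, used array weights, a replicate block, a set term or a correction for GC and length (loess, span 0.3), or left out a library.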

Additional observations from a re-analysis of the deposited data

How the results depend on the processing

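Over 18 alternative fits the 9 genes kept their sign in 161 of 162 gene-by-fit values, the exception being COL7A1 at 0.06 after the GC content and length correction. Fits that changed only the filter or the variance model cannot change a log2 difference. Their signs among the 162 were thus fixed in advance and are no separate check. Within set A, COL7A1 (0.08) and CD151 (0.01) also changed sign. Unless stated, the cause of a change was not tested. LAMA3 ranged from -0.95 to -0.54, PLEC from -0.86 to -0.39, DST from -0.44 to -0.34 and COL17A1 from 0.20 to 0.45. With array weights 5 of the 9 genes passed and 7 had an unadjusted p under 0.05; over all genes 1428 passed, 4285 had an unadjusted p under 0.05, and AHNAK was at -1.55 and passed. Over all genes 1 gene passed with a pseudocount of 1, with robust empirical Bayes and without a trend. Genes with an unadjusted p under 0.05 numbered 1427 in the reported fit, 862 at a mean of at least 5 FPKM, where fewer genes were tested, 828 with a set term and 2207 once corrected for GC and length. Leaving out 1 library at a time gave 1 to 5 of the 9 genes with an unadjusted p under 0.05, 0 to 9 genes past the threshold over all genes, 564 to 2092 genes with an unadjusted p under 0.05, an ITGA6/ITGB4 difference of -0.34 to 0.03 and a COL7A1/LAMB3 difference of -0.08 to 0.30. The ITGA6/ITGB4 difference was 0.16 within set A, DST/PLEC -0.01 after the GC content and length correction, and COL7A1/LAMB3 -0.34 within set B. Deviations from the group mean had a Pearson's r across genes of -0.064 between the libraries of number 1 and -0.578 between those of number 2. With 2 controls the deviations of 1 mirror those of the other, so these values cannot show whether the numbers pair libraries. With the replicate block the median of the 9 genes was -0.22, 8 were lower, 4 had an unadjusted p under 0.05, as did 977 of all 12196 tested genes, and 0 passed. Only knockdown replicate 3 has its number, so the block gives the same differences as leaving that library out. Its values among the 162 are therefore a repeat and not a separate check. Within the sets no test over all genes was run, since set B has 1 library per group. Read totals are unknown, so no statement on depth can be made for single genes.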
